A study of Sus scrofa with 19 samples.

Results

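The genes described here encode the proteins of the cytosolic ribosome, and 37 of them were measured in pig endometrium, the lining of the uterus. They were chosen by name: genes whose RefSeq accession on the array maps to a symbol of the RPL, RPS or RPLP series, or to RPSA, excluding the RPS6K kinases, with a probe well above background on at least 4 arrays. All 37 such genes on the array met the background criterion, 21 of the large and 16 of the small ribosomal subunit, out of 3010 genes with a symbol that met it. The RefSeq table of the pig genome lists 84 protein-coding symbols of this kind. Those without a matching probe were not analysed here. The 37 genes carried 187 probes, all of which met the criterion, and each gene is represented by its probe with the highest mean signal, which was well above background on all 19 arrays.

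The 19 arrays came from 10 crossbred gilts (young female pigs) aged 8 months, whose uterine horns had been cannulated on days 8 to 9 after oestrus and infused at intervals of 4 h over 24 h, on days 11 to 12. Hormone horns (n = 6) were given PGE2 (prostaglandin E2) at 200 µg and E2 (estradiol) at 33.3 µg in each infusion. Placebo horns (n = 5) were the opposite horns of the same gilts and received only the vehicle, 5 mL of saline with 1% ethanol. Control gilts (4 animals, 8 arrays) received vehicle in both horns, and their horns are marked L or P, letters that the labels do not explain. The mark was P for 5 of the 6 hormone horns and L for the other one and for every placebo horn. A placebo horn shares its animal with a hormone horn, so it is an untreated horn of a treated gilt, and every animal, controls included, had surgery and repeated infusion.

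Each ribosome carries a single copy of nearly every one of these proteins, so a cell makes them in matched amounts, and surplus protein is degraded. Their mRNAs are among the most abundant and longest-lived in growing cells. In vertebrates they begin with a pyrimidine tract through which the kinase mTOR sets how strongly they are translated, so an mRNA level by itself does not give the rate of protein synthesis. In the rodent uterus, estradiol is known for stimulating the making of ribosomes and overall growth.

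Values are log2 of the probe's signal minus log2 of the 75th percentile of its array, so 1 unit is a 2-fold difference in signal. Signals of different probes are not compared as transcript levels, since brightness depends on the probe. On each array 79.1% to 88.4% of spots stood clear of background. The array's 75th percentile of signal ran from 594 (hormone horn of gilt 36) to 978, and no spot was saturated. The labelled tissue was checked on its 7 measured epithelial markers, EPCAM and KRT8 among them, and each was well above background on all 19 arrays. In whole tissue, fewer cells of a type and less RNA per cell cannot be told apart. Many mammalian ribosomal protein genes have near-identical processed pseudogenes or paralogs, and probes that also bind their transcripts could not be separated.

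The ribosomal protein genes were bright and varied little. As probe signals, 36 of the 37 lay among the 301 brightest of the 3010 genes. RPS20 and RPS3, proteins of the small subunit, and RPL32 of the large subunit had the brightest probes, with means of 8.77, 8.28 and 8.65 over the 19 arrays. The dimmest probes were those of RPL3 (4.67), RPL7L1 (4.03) and RPL26L1 (2.79), the last a close paralog of RPL26. Over the 19 arrays the median SD of the 37 genes was 0.206, against 0.389 for all genes with a symbol and 0.285 for those 301 brightest genes. For 35 of the 37 genes the SD was below both of these medians, and the exceptions were RPL13A (0.415) and RPL14 (0.405). The lowest SD was that of RPL7 (0.135), a large-subunit protein.

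Most of that variation was shared. When the median of the 37 genes on each array was taken out, the median SD of the 37 genes was 0.126. RPL11, which with RPL5 forms a complex on a small ribosomal RNA and can bind the p53 regulator MDM2, stayed closest to the common level, with an SD about it of 0.04. RPL6, RPL27 and RPL29, also of the large subunit, followed at 0.06, 0.07 and 0.07. RPL14 (0.41), RPL13A (0.32), RPL3 (0.25) and RPL22 (0.23) kept most of their own variation. These genes and the order they stand in were read from the values.

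**Figure D1:**
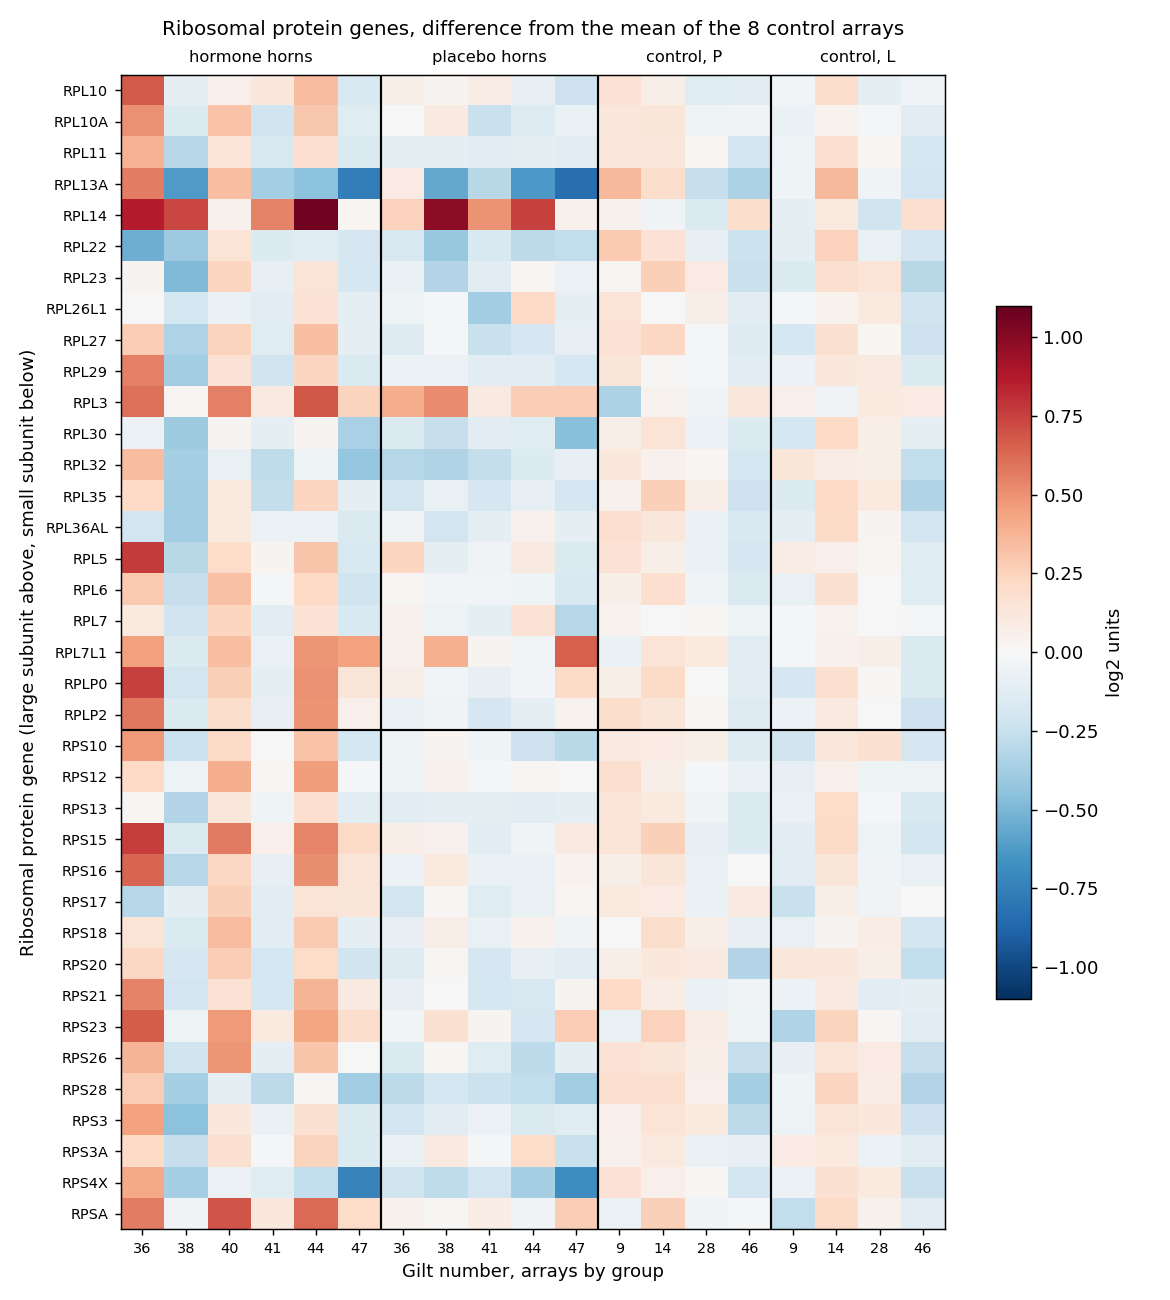
Difference of each of the 37 ribosomal protein genes (rows, large subunit above the line) from the mean of the 8 control arrays in log2 units, for 6 hormone horns, 5 placebo horns and the control horns marked P and L (columns, gilt numbers below). Most genes on an array share a colour, red in the hormone horns of gilts 36, 40 and 44 and blue in that of gilt 38, while RPL14, RPL13A, RPL3 and RPS4X break the pattern.

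The hormone horns did not share a common level of these genes. On the hormone arrays of gilts 36, 40 and 44, the number of genes above the mean of the control arrays was 33, 33 and 32 of 37. On those of gilts 38, 41 and 47 it was 2, 9 and 12. Placebo horns had 6 to 16 such genes, and control horns 2 to 36. The median of the 37 genes relative to the control mean was 0.38, -0.24, 0.21, -0.10, 0.24 and -0.13 in the hormone horns of gilts 36, 38, 40, 41, 44 and 47. Placebo horns lay between -0.11 and -0.02 and control horns between -0.17 and 0.14. Hormone horns thus lay both above and below the control range, with an SD of 0.247 between arrays, against 0.0350 in placebo horns and 0.123 in control horns. The subunits went together: in the hormone horn of gilt 36 the median was 0.38 for the large and 0.39 for the small subunit, and in that of gilt 38 it was -0.30 and -0.21.

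The size of these shifts depended on the scaling of the arrays. With quantile normalization the same medians ran from -0.10 to 0.18 in hormone horns, -0.11 to 0.04 in placebo horns and -0.05 to 0.06 in control horns. In the authors' deposited value table they ran from -0.22 to 0.25, -0.09 to -0.03 and -0.15 to 0.13 in these groups. The SDs between arrays in hormone, placebo and control horns were 0.110, 0.0599 and 0.0465 with quantile normalization. Scaled to the array median they were 0.234, 0.0646 and 0.144. With normexp, an alternative background correction, they were 0.241, 0.0810 and 0.117. Gilts 36, 40 and 44 were the highest hormone horns and gilt 38 the lowest under each of the 5 scalings. The array of the hormone horn of gilt 36 also had the lowest 75th percentile of signal, and its median over all tested probes stood 0.17 above the control mean.

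**Figure D2:**
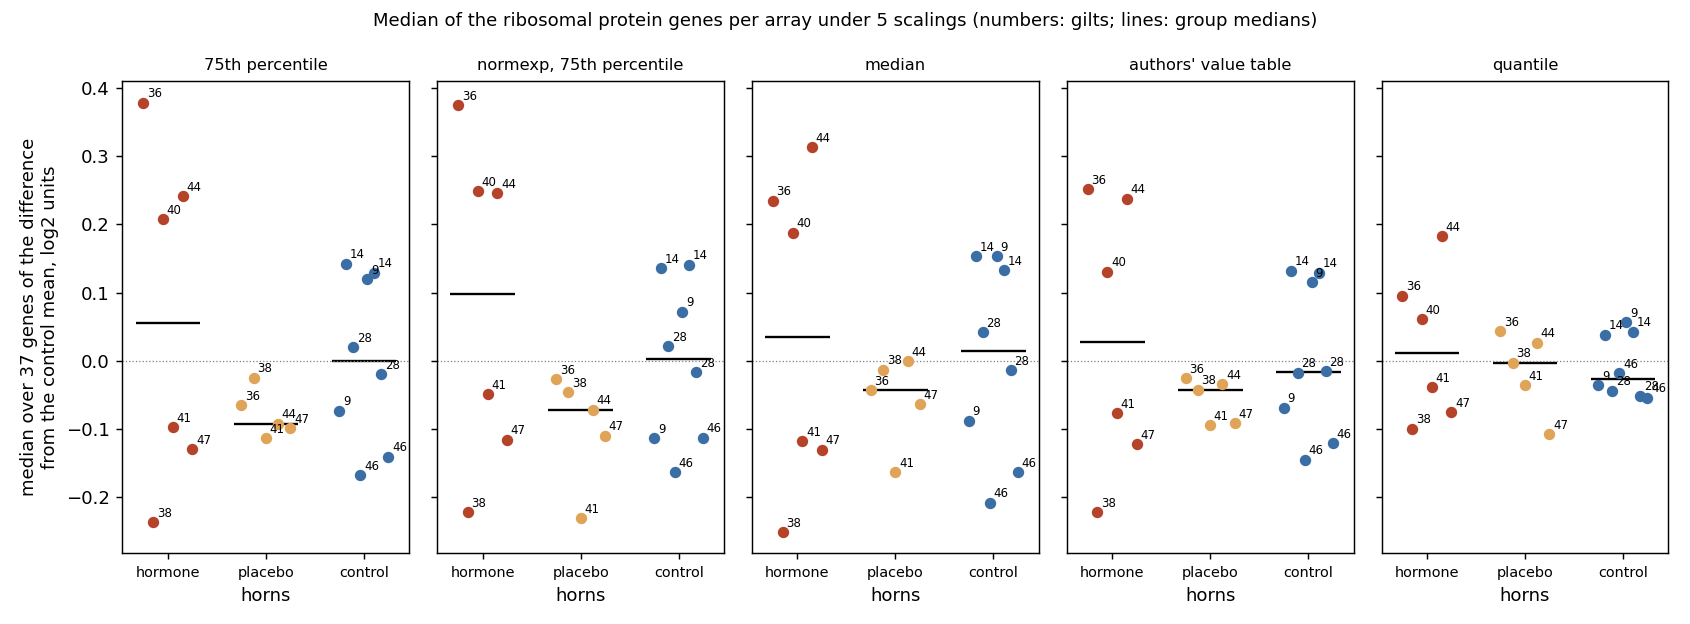
Median over the 37 ribosomal protein genes of the difference from the control mean (log2 units) for each array, by group and under 5 scalings (points are arrays with their gilt numbers, lines are group medians). Hormone horns spread from -0.24 to 0.38 with the 75th percentile and from -0.10 to 0.18 with quantile normalization.

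The first comparison set hormone horns against control gilts. With limma, 0 of the 37 genes passed at an adjusted p under 0.05, while 11.7% of all 39090 probes tested passed, 6.85% higher and 4.89% lower in hormone horns. These were 2679 and 1911 probes. The count of higher probes was 1128, 880 and 1001 without control gilts 9, 14 and 28, and 1780 without treated gilt 44. In the fit of all gilts, 1139 of the 7491 probes with a RefSeq accession passed as higher and 159 as lower. At an unadjusted p under 0.05 there were 4 of 37 genes (RPL14, RPL3, RPSA and RPS15, all higher). This stands against 27.1% of all probes and 35.8% of RefSeq probes. The median difference of the 37 genes was 0.05, against 0.01 over all probes and 0.20 over probes with a RefSeq accession, the class to which all members belong. Of the 37 differences, 25 were positive and 12 negative, and they ran from -0.22 to 0.55. Of all probes 51.4% were positive, and of RefSeq probes 67.6%. The 95% intervals of all 37 lay within 1 log2 unit of 0, between -0.66 and 0.93, and 33 of them held 0. In no gene did all hormone arrays lie above, or all below, the control arrays, against 3.95% and 2.97% of all probes.

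RPL14, a large-subunit protein, had the largest difference. Hormone horns had 6.23, 6.84 and 7.26 (lowest, median and highest), placebo horns 6.25, 6.45, 6.70, 6.96 and 7.19, and control horns 5.98, 6.21 and 6.39. Means were 6.75 ± 0.43 (SD, n = 6), 6.71 ± 0.37 (SD, n = 5) and 6.20 ± 0.15 (SD, n = 4 gilts). Both horns of gilts 36, 38, 41 and 44 lay above all control horns. Both horns of gilt 47 and the hormone horn of gilt 40 lay within the control range. The difference of hormone horns from control gilts was 0.55 ± 0.18 (SE), or 1.46-fold, with an adjusted p of 0.0595 (limma). Without gilt 40 or gilt 47 it was 0.65 in each case and passed, at adjusted p of 0.0322 and 0.0234 (limma). It did not pass with any other gilt left out. Over the 5 probes of the gene it ran from 0.40 to 0.48 without gilt 44 and from 0.43 to 0.54 without gilt 36. In both of these fits 0 probes passed. Within the 3 scan days the difference on the brightest probe was 0.99, 0.37 and 0.20.

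RPL14 thus differed between treated gilts more than between the horns of a gilt. Its hormone minus placebo difference was 0.62, -0.25, 0.05, 0.31 and -0.03 in gilts 36, 38, 41, 44 and 47. All 5 RPL14 probes gave positive differences from control gilts, 0.49 to 0.58 in hormone horns and 0.37 to 0.50 in placebo horns. In the hormone comparison 1 of the 5 probes passed. RPL14 did not follow the other ribosomal protein genes: in the hormone horn of gilt 38, where the median gene was lowest, it stood 0.97 above that median.

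RPL3, which lies close to the peptide-forming centre of the large subunit, came next. Hormone horns had 4.50, 4.87 and 5.15 (lowest, median and highest), placebo horns 4.57, 4.74, 4.74, 4.87 and 5.00, and control horns 4.13, 4.52 and 4.60. The lowest hormone horns, of gilts 38 and 41, overlapped the control horns, and 4 of the 5 placebo horns lay above all of them. The difference of hormone horns was 0.37 ± 0.15 (SE; adjusted p = 0.112, limma). It passed without gilt 38 (0.44, adjusted p = 0.0451, limma), but not with any other gilt left out. The gene has a single probe on the array.

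RPSA, a small-subunit protein also known as a laminin receptor, had 6.44, 6.86 and 7.17 in hormone horns, 6.44, 6.49, 6.52, 6.56 and 6.75 in placebo horns, and 6.20, 6.45 and 6.74 in control horns. The hormone horns of gilts 36, 40 and 44 lay above all other arrays, and those of gilts 38, 41 and 47 within the control range. The difference from control gilts was 0.36 ± 0.15 (SE; adjusted p = 0.116, limma).

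RPS15, a protein of the head of the small subunit, had 6.56, 7.09 and 7.48 in hormone horns, 6.59, 6.68, 6.77, 6.79 and 6.82 in placebo horns, and 6.52, 6.65 and 6.98 in control horns. Again the hormone horns of gilts 36, 40 and 44 were the highest of all arrays. Its difference from control gilts was 0.33 ± 0.15 (SE; adjusted p = 0.171, limma). These 4 genes make up the largest differences of this comparison. They stood beside a difference between treated and control arrays in the signal of RefSeq probes over probes named by a contig, a class with other gene models. That gap was 1.93 to 2.24 log2 units on hormone arrays, 1.99 to 2.29 on placebo arrays and 1.65 to 1.85 on control arrays. With this gap as a term in the fit, RPL14 differed by 0.60 but RPSA by 0.01 and RPL3 by -0.04, and the median of the 37 genes was -0.05. The gap follows the gilts' treatment, so its part and that of the treatment cannot be told apart.

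The smallest differences were those of RPL13A (-0.22 ± 0.21, SE), RPL22 (-0.21 ± 0.13), RPS4X (-0.19 ± 0.15) and RPL32 (-0.15 ± 0.13), with adjusted p between 0.316 and 0.541 (limma). RPL13A, which in human monocytes can leave the ribosome and silence inflammatory mRNAs, was the most variable of the 37 genes. It had 5.28, 5.63 and 6.60 in hormone horns, 5.21, 5.41, 5.48, 5.74 and 6.13 in placebo horns, and 5.69, 5.996 and 6.40 in control horns. The highest arrays of the treated gilts were those of gilts 36 and 40, and both horns of gilt 47 were the lowest of all.

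RPS4X, the X-linked copy of a small-subunit gene that has a Y-linked partner in humans, had 6.55, 7.08 and 7.70 in hormone horns, 6.60, 6.92, 7.01, 7.06 and 7.07 in placebo horns, and 7.04, 7.32 and 7.45 in control horns. Its lowest values were again both horns of gilt 47. All 14 RPS4X probes gave negative differences from control gilts, -0.21 to -0.03 in hormone horns and -0.34 to -0.13 in placebo horns, and none passed. In gilt 47 the median marker of T and natural killer cells (11 genes measured) stood 2.54 and 2.40 above control gilts in the hormone and the placebo horn. In the other treated horns it lay between -0.05 and 0.78. Neutrophil markers (6 genes) stood 6.55 and 7.50 above in gilt 47 and -0.70 to 5.32 above in the others. Markers of macrophages and dendritic cells (12 genes) stood 2.49 and 2.69 above in gilt 47 and 0.16 to 1.26 above in the others, and those of B and plasma cells (3 genes) 3.08 and 3.32 above, against -0.39 to 1.40. The part of these immune cells in the RPL13A and RPS4X values was not tested.

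**Figure D3:**
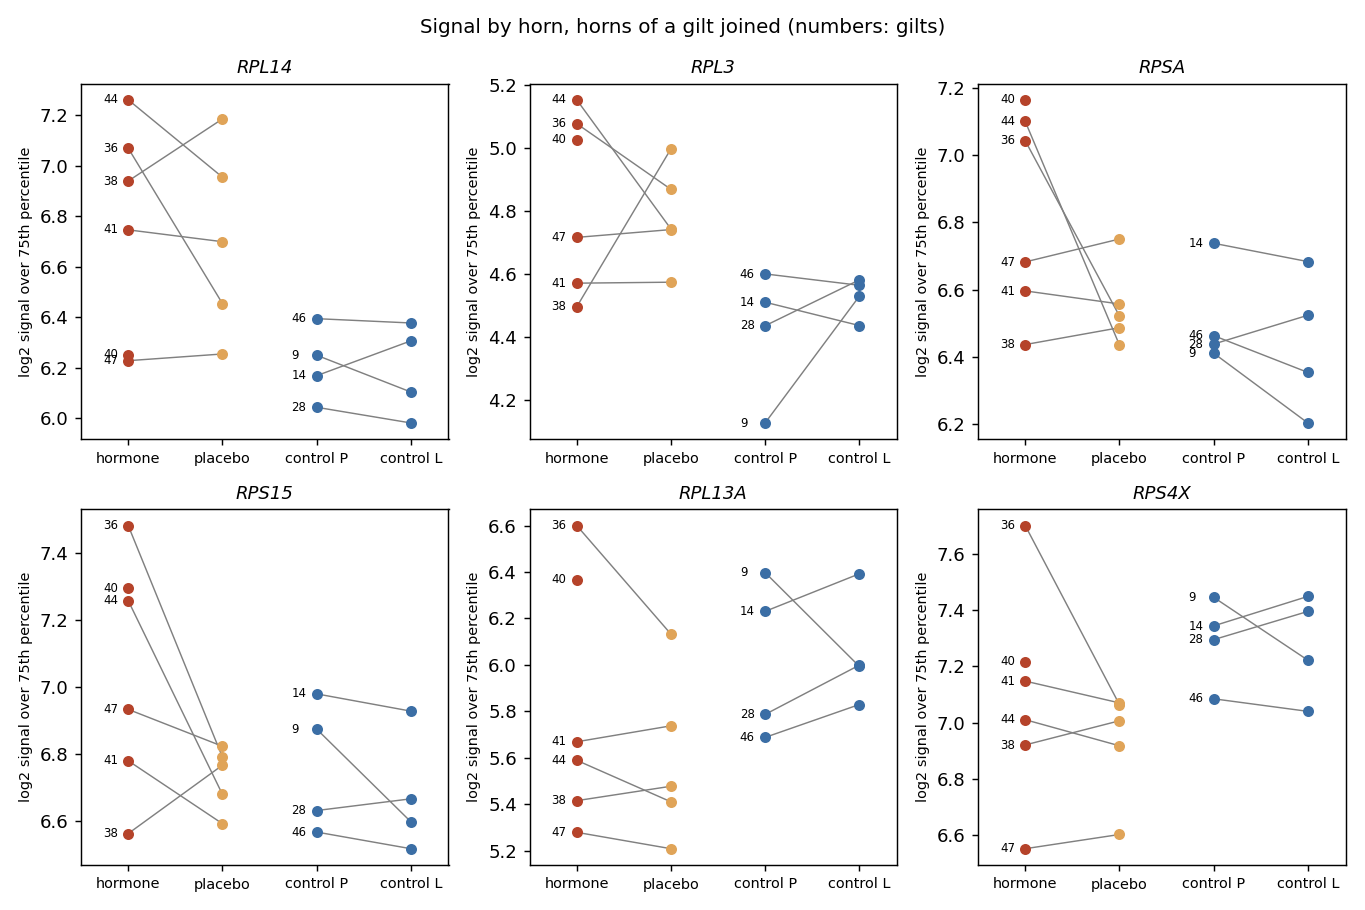
Signal (log2 over the array's 75th percentile) of 6 ribosomal protein genes by horn, with lines joining the horns of a gilt and gilt numbers beside the points. RPL14 lies above all control horns in both horns of gilts 36, 38, 41 and 44, RPSA and RPS15 are highest in the hormone horns of gilts 36, 40 and 44, and RPL13A and RPS4X are lowest in gilt 47.

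Most of the genes have several probes. Of the 31 genes with over 1 probe, 26 had all probes on the same side of 0 in hormone horns against control gilts. Over all 187 probes, 8 passed, all higher in hormone horns (4.28% against 11.7% of all probes). They were 4 of the 6 RPSA probes (0.54 to 0.60), 3 of the 13 RPLP0 probes (0.50 to 0.58) and 1 RPL14 probe (0.57). RPLP0 is the base of the stalk that brings elongation factors to the ribosome. For RPSA the brightest probe gave the lowest of the 6 differences (0.36), and for RPLP0 the brightest gave the lowest of the 13 (0.22). The same held for RPL5 (0.14 on its brightest probe, up to 0.42 on others). Among the 27 genes with at least 3 probes, the brightest probe was below the median of the gene's probes in 16 and above it in 5. As the rule takes the brightest probe, the gene-level values of RPSA, RPLP0 and RPL5 are their lowest in hormone horns against control gilts. This need not hold in the other comparisons. Whether bright probes respond less to a change in RNA was not tested.

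One dim RPSA probe lacked a value on the L horn of control gilt 28. Averaged over the 5 RPSA probes with a value on every array, the difference was 0.50 and passed (adjusted p = 0.0300, limma, an average chosen after seeing the data). The planned average over all 6 probes, with that gap, also gave 0.50 (adjusted p = 0.0336). On the mean of the 5 probes, hormone horns had 5.37, 5.83 and 6.09 (lowest, median and highest), placebo horns 5.36, 5.49, 5.54, 5.56 and 5.68, and control horns 5.20, 5.25 and 5.42. All but the lowest hormone horn (gilt 38) lay above all control horns, and so did 4 of the 5 placebo horns. The count of 8 probes was 0 when control gilt 9, 14 or 28 was left out and 4 without control gilt 46. Among treated gilts it was 3 without gilt 36, 5 without gilt 44, 14 without gilt 47 and 17 without gilt 38. It was also 3 without the hormone horn of gilt 36, 0 within each scan day, and 0 with the RefSeq over contig gap as a term.

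**Figure D4:**
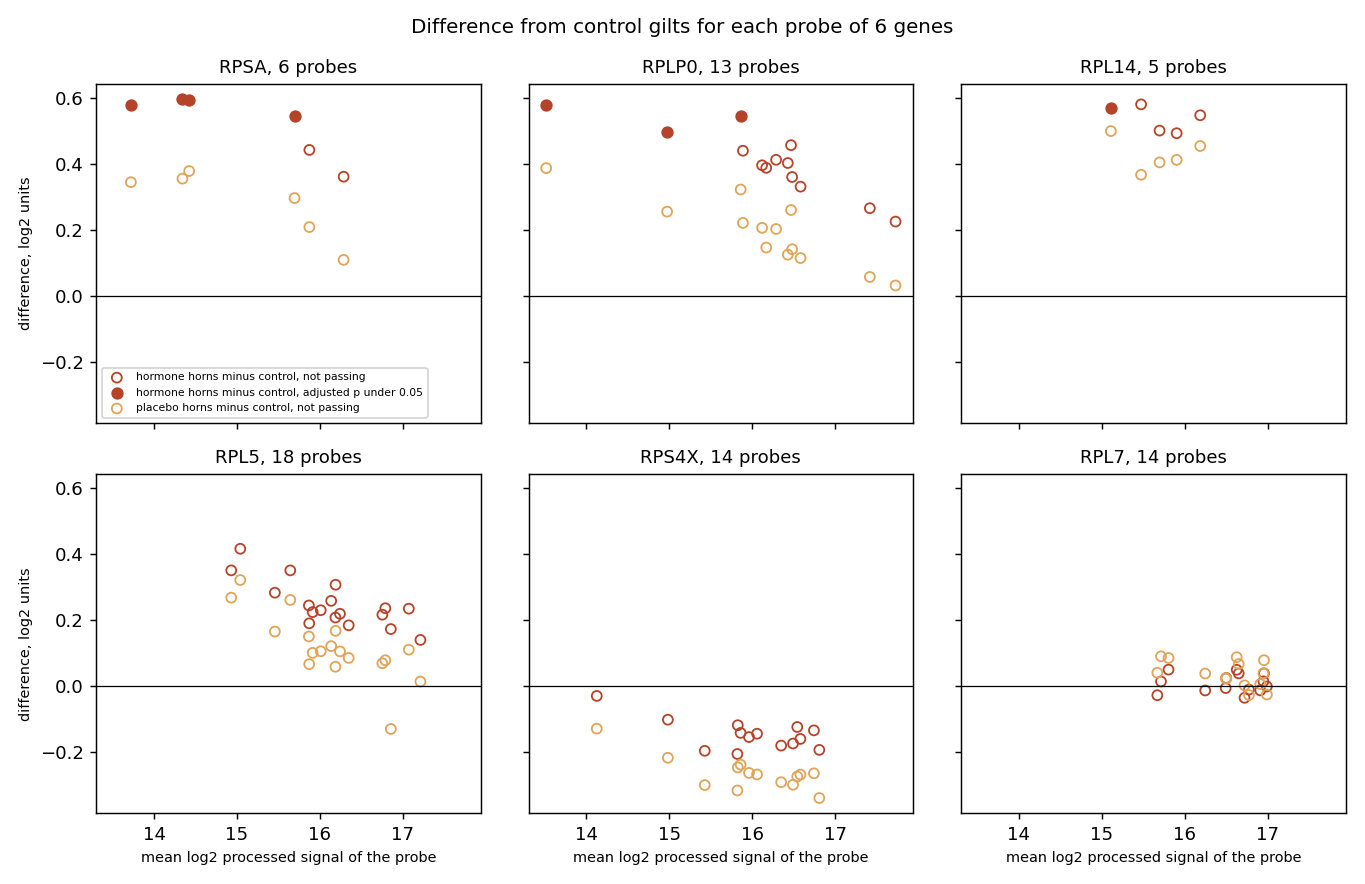
Difference from control gilts (log2 units) for each probe of 6 genes against the probe's mean log2 processed signal, for hormone horns and placebo horns (filled points passed at an adjusted p under 0.05). In RPSA, RPLP0 and RPL5 the brightest probe has the smallest difference in hormone horns, in RPL14 all 5 lie between 0.49 and 0.58 in hormone horns, and in RPS4X all 14 lie below 0.

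The second comparison set the placebo horns of treated gilts against control gilts and shares the control arrays with the first. Again 0 of 37 genes passed (limma), against 4.48% of all 39091 probes, 2.56% higher and 1.93% lower in placebo horns. That background changed with the gilts included. With 1000 probes higher and 753 lower over all gilts, the counts (limma) were 0 and 0 without control gilt 28, 1 and 3 without control gilt 14, and 97 and 42 without control gilt 9. At an unadjusted p under 0.05 there were 7383, 6778 and 6921 probes in these 3 fits, against 9279 over all gilts. Without control gilt 46 the counts of passing probes were 866 and 645. Without treated gilts 36, 38, 41 and 47 they were 1513 and 1696, 231 and 183, 552 and 379, and 256 and 159. Without treated gilts 40 and 44 they were 917 and 607, and 1019 and 581. With the horn mark as a term they were 7 and 13. At an unadjusted p under 0.05 there were 3, with RPL14 and RPL3 higher and RPS4X lower in placebo horns, against 23.7% of all probes. The median difference was -0.07, against -0.06 over all probes and 0.13 over RefSeq probes, and 11 differences were positive and 26 negative (44.2% of all probes and 62.8% of RefSeq probes were positive). Over all 187 probes of the 37 genes the median was 0.01, and 99 were positive and 88 negative. Among the 27 genes with at least 3 probes, the brightest was below the median of the gene's probes in 20 and above it in 6. No gene had all placebo arrays above, or all below, the control arrays, against 3.04% and 2.76% of all probes. Intervals ran from -0.84 to 0.85. These fitted differences use what both horns of a gilt share, so they are not plain differences of the group means, as gilt 40 has no placebo array.

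RPL14 differed by 0.45 ± 0.19 (SE; adjusted p = 0.157, limma) and RPL3 by 0.33 ± 0.15 (adjusted p = 0.193), close to their values in hormone horns. RPL7L1, a relative of RPL7, differed by 0.23 ± 0.17 and RPSA by 0.11 ± 0.15. RPL7L1 had 3.73, 4.28 and 4.38 in hormone horns, 3.86, 3.92, 3.94, 4.28 and 4.54 in placebo horns, and 3.73, 3.91 and 4.04 in control horns, with its highest value in the placebo horn of gilt 47. The most negative differences were those of RPL13A (-0.39 ± 0.22), RPS4X (-0.34 ± 0.16), RPS28 (-0.27 ± 0.14) and RPL22 (-0.22 ± 0.13), with adjusted p between 0.195 and 0.316. RPS28, of the small subunit, had 7.82, 7.91, 7.93, 7.96 and 8.00 in placebo horns, and 7.83, 8.26 and 8.43 in control horns. The placebo horns lay at the lower end of the control range, that of gilt 47 just below it, and control gilt 46 was the only control animal among them.

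**Figure D5:**
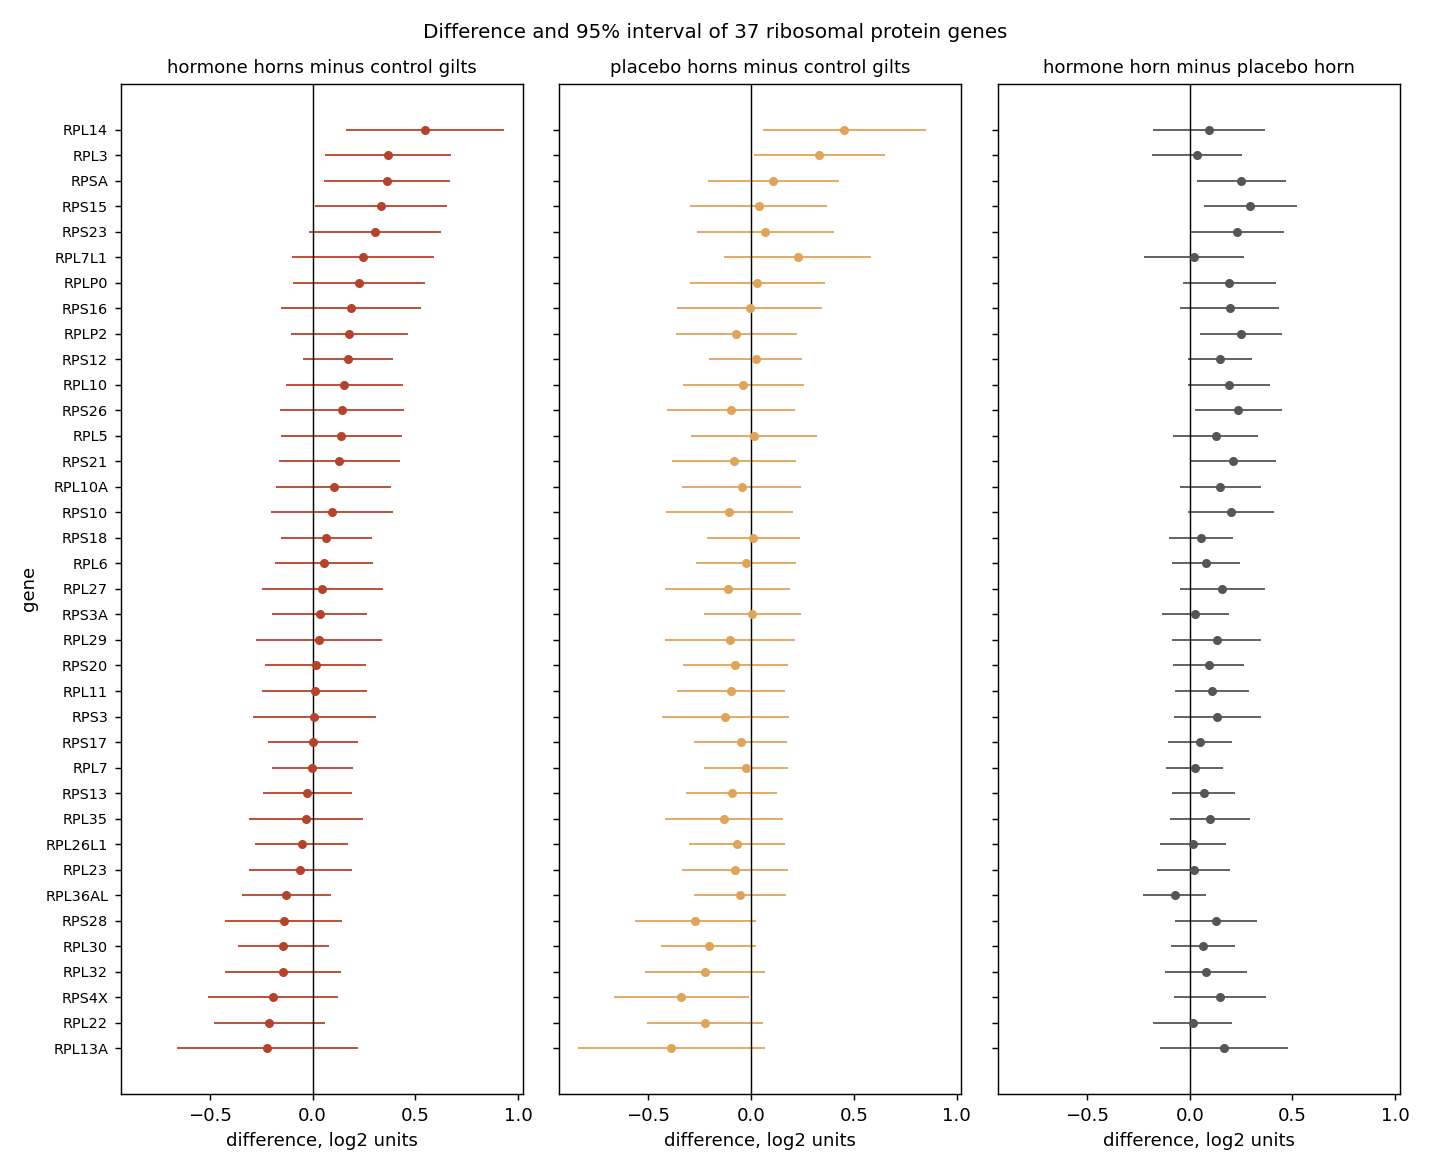
Differences in log2 units (points) with 95% intervals (bars) of the 37 ribosomal protein genes, ordered by the first panel, for hormone horns minus control gilts, placebo horns minus control gilts and hormone horn minus placebo horn. All bars lie within 1 unit of 0; the first panels share their control arrays, and in the third panel 36 of 37 points lie above 0.

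The third comparison, between the horns of the same gilts, addressed the local effect of the hormones. With limma 0 of 37 genes passed, as did 1 of all 39090 probes (0.00256%). At an unadjusted p under 0.05 there were 6 genes, all higher in the hormone horn, against 9.82% of all probes and 11.6% of RefSeq probes. On their brightest probes the differences were positive for 36 of 37 genes, against 62.4% of all probes, with a median of 0.13 against 0.06. Over all 187 probes of these genes, 164 were positive and 23 negative. Of the 31 genes with over 1 probe, 23 had all probes on the same side of 0. These genes share arrays and move together, so their signs are not separate observations. The count of 36 genes also rests on few gilts. Within gilts 36 and 44, 34 and 35 of 37 genes were higher in the hormone horn, with medians of 0.48 and 0.31. Within gilts 41 and 47 it was 22 and 15 genes, with medians of 0.02 and -0.01, and within gilt 38 it was 1 gene, with a median of -0.20. Among control gilts 9, 14, 28 and 46, where both horns had vehicle, the horn marked P was higher for 32, 19, 8 and 25 genes, with medians of 0.20, 0.00, -0.03 and 0.04.

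Without the hormone horn of gilt 36 the median over genes was 0.03, and with quantile normalization 0.02. It was 0.0347 without both horns of gilt 36, 0.0765 without gilt 44 and 0.198 without gilt 38. Within the 3 scan days it was 0.37, 0.09 and -0.11. The second of these days includes the hormone horn of gilt 40, and its only pair of horns, of gilt 41, had a median difference of 0.02. The arrays of gilts 36 and 44 were scanned on the same day. The day also holds control gilt 9, in which most genes were higher in horn P. On that array the median smooth muscle marker (4 genes) stood 2.34 above the control mean, and the median epithelial marker was at -0.57. All 4 smooth muscle markers were higher in hormone than in placebo horns (median 0.66) and in P than in L horns of control gilts (median 0.81). None passed, and the part of smooth muscle was not tested.

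On the brightest probes, the largest horn differences were those of RPS15 (0.29 ± 0.11, SE), RPSA (0.25 ± 0.10), RPLP2 (0.25 ± 0.10) and RPS26 (0.24 ± 0.10). Their adjusted p lay between 0.396 and 0.468 (limma). RPLP2 has a single probe, and in RPS15, RPSA and RPS26 the brightest probe gave the highest difference of the gene's probes. Over all probes these genes ran from 0.20 to 0.29, 0.21 to 0.25 and 0.18 to 0.24. RPS15 differed by 0.69, -0.20, 0.19, 0.58 and 0.11 in gilts 36, 38, 41, 44 and 47, so it was higher in the hormone horn of 4 of 5 gilts. RPLP2, a protein of the ribosomal stalk, differed by 0.65, -0.11, 0.10, 0.59 and 0.02, and RPS26, which lines the path where mRNA leaves the small subunit, by 0.53, -0.23, 0.03, 0.60 and 0.10. In all 3 genes gilts 36 and 44 had by far the largest values and gilt 38 the reverse sign. At the other end stood RPL36AL, a paralog of RPL36A and the only gene with a negative difference on its brightest probe (-0.07 ± 0.07, SE). Next were RPL22 (0.01), RPL26L1 (0.02) and RPL23 (0.02). Over all their probes, 2 of 3, 1 of 4 and 2 of 4 were positive in these 3 genes, and 3 of 14 in RPL7. RPL36AL had 5.80, 6.06 and 6.29 in hormone horns and 5.97, 6.07, 6.08, 6.14 and 6.22 in placebo horns, which overlapped.

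Horns marked P and L of control gilts gave 0 of 37 genes (limma; 0 at an unadjusted p under 0.05, against 2.42% of all probes), with differences from -0.11 to 0.11 and a median of 0.04. Of these, 28 were positive, against 50.1% of all probes. When the horn difference of treated gilts was set against that of control gilts, 0 genes passed again (limma; 0 at an unadjusted p under 0.05, against 3.27% of all probes). The median of this interaction was 0.08 over the 37 genes and 0.06 over all probes, and 30 genes were positive, against 60.7% of all probes.

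Other genes of the translation machinery were taken from lists chosen by function. Over all genes with a symbol, 15.5% passed in hormone horns against control gilts. For the assembly of ribosomes, 3 of 13 measured genes passed in hormone horns against control gilts, all higher. They were NIFK, DKC1 and IMP3, nucleolar proteins that process ribosomal RNA, at 0.75 ± 0.20, 0.77 ± 0.23 and 0.49 ± 0.15 (SE; adjusted p = 0.0235, 0.0380 and 0.0425, limma). NIFK had 2.90, 3.01 and 3.82 in hormone horns (lowest, median and highest), 2.60, 3.08 and 3.47 in placebo horns, and 2.05, 2.46 and 2.76 in control horns. Hormone horns lay above all control horns, and placebo horns overlapped them. Of 7 mitochondrial ribosomal proteins, 2 passed: MRPS11 rose by 0.66 ± 0.19 (adjusted p = 0.0295, limma), and MRPL58, which releases peptides from mitochondrial ribosomes, by 0.48 ± 0.14 (adjusted p = 0.0389). Among 5 elongation factors and other mRNAs that carry the same pyrimidine tract, the import receptor IPO5 rose by 0.70 ± 0.17 (adjusted p = 0.0151), while EEF1A1, the main elongation factor, had a difference of 0.12 and TPT1 0.11. Of 8 genes of the mTOR pathway, the kinase AKT1 rose by 0.88 ± 0.23 (adjusted p = 0.0216, limma), and RRAGD, a GTPase that carries amino acid signals to mTOR, fell by 0.79 (SE 0.21, adjusted p = 0.0205). The median differences of these 4 lists were 0.41, 0.23, 0.12 and 0.17, against 0.17 over all 3009 genes with a symbol tested. None of these genes passed in the other comparisons. In placebo horns against control gilts, NIFK, DKC1, IMP3 and MRPS11 differed by 0.65, 0.59, 0.35 and 0.43. MRPL58, IPO5, AKT1 and RRAGD differed there by 0.13, 0.59, 0.77 and -0.29. Hormone minus placebo, NIFK, DKC1, IMP3 and MRPS11 differed by 0.10, 0.18, 0.13 and 0.22. MRPL58, IPO5, AKT1 and RRAGD differed by 0.35, 0.11, 0.11 and -0.50 between these horns. With the RefSeq over contig gap as a term, 0 of all 39088 probes passed (limma; 1383 at an unadjusted p under 0.05), so each of these calls ended. Cell type markers moved in the same comparison: 4 of 7 of epithelium, 2 of 5 of stroma, 3 of 5 of endothelium, 3 of 12 of macrophages and dendritic cells and 3 of 6 of neutrophils were higher. Another of the 6 neutrophil markers had a difference of -1.39 and did not pass. Of 11 T and natural killer cell markers 0 were higher and 1, GZMB, was lower (-0.93 ± 0.21, SE, adjusted p = 0.0106, limma). Of 3 B and plasma cell and 4 smooth muscle markers, 0 passed. The median epithelial marker stood 0.35 to 0.94 above the control mean in hormone horns and 0.40 to 0.71 in placebo horns, against -0.57 to 0.19 in control horns. The part of these cells was not tested. Whether these lists differ from the 37 genes was not tested.

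RACK1, a scaffold protein on the small subunit, is a ribosomal protein under another name. It had 6.18, 6.55 and 7.02 in hormone horns (lowest, median and highest), 6.29, 6.39 and 6.44 in placebo horns, and 6.19, 6.26 and 6.32 in control horns. Hormone horns overlapped the control horns at their lower end. Its difference in hormone horns was 0.31 ± 0.14 (SE; adjusted p = 0.169, limma).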

How the data were processed

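Endometrial RNA (0.5 µg per sample, isolated with TRIzol per the labels' protocols) was hybridised to Agilent arrays in a single colour, Cy3. Scanner files as deposited give an intensity on a linear scale for each spot, background-subtracted and detrended by Agilent Feature Extraction 10.7.3.1 per the file headers (9.1 per the submitters' processing notes), and not scaled across arrays. For the same arrays a table of log2 values deposited by the authors served as an alternative (r 0.995 to 0.999 with the scanner values, medians 7.72 to 7.83 per array). For that table, scaling and centring are not given in the sources used here.

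Control spots and outlier-flagged values were left out, spots of a probe were averaged, and log2 of the processed signal was taken minus log2 of the 75th percentile of the array. Probes flagged well above background on 4 or more arrays were tested with limma 3.58.1 (statmod 1.5.0, R 4.3.3; eBayes with trend) in a fit of all 19 arrays and 4 groups, two-sided, with Benjamini-Hochberg adjustment over all probes and a threshold of 0.05. The gilt was a random block, since arrays of the same number come from the same animal. Deviations of a gilt's horns from the group means correlated at 0.336 to 0.795, against at most 0.143 with another gilt, and the fitted correlation was 0.536. Both horns of each gilt were on a common slide, shared by gilts 9 and 36 only, so gilt and slide cannot be told apart. For comparisons with control gilts the replicate is the animal, whereas the fit works on arrays, so their p can be too small. In simulated data, 200 of 38532 probes were changed by 0.5 log2 units and another 200 by 1. The change of 0.5 was recovered for 12% in hormone horns against control gilts and 37% between horns, and that of 1 for 46.5% and 77.5%. These probes were drawn from all classes. Over all tested probes the median SD was 0.379, against 0.206 for the 37 genes, and 4590 probes passed in the first comparison. The recovery rates therefore need not hold for the 37 genes.

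Symbols came through RefSeq accessions and the table of Sscrofa11.1 (6876 of 43603 probes matched a gene). No sequences or coordinates were used. Named genes are the 4 largest and 4 smallest differences in each of the first 3 comparisons, the 3 brightest and 3 dimmest probes, members named as paralogs, and up to 3 genes per list by smallest p. RPS23, RPLP0, RPL5, RPL6, RPL7, RPL11, RPL27, RPL29, EEF1A1, TPT1 and the epithelial markers were named after their values were seen. Members and lists were chosen with earlier results of these data known. Alternatives covered background correction (normexp on median signals, as mean signals were not in the files used), scaling, filters, probe choice, blocks, scan day, annotation class and left-out gilts. The figures were drawn with matplotlib 3.10.9.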

Additional observations from a re-analysis of the deposited data

Results flagged for a closer look

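Among 72 sets of arrays examined (the median over the 37 genes and 17 named genes, each in the 4 groups), an array stood far from the others of its group in 3. Chance gives about 1 such case in 20 sets. RPS20 was at 8.48 in horn P and at 8.53 in horn L of control gilt 46, below the other 3 control gilts in both horns, whose values lay between 8.86 and 8.92. RPSA was at 6.74 in horn P of control gilt 14, above the other 3 P horns of control gilts (6.41 to 6.46). Control gilt 46 was also the lowest control animal for the median over the 37 genes, at -0.14 in horn P and -0.17 in horn L.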

How the results depend on the processing

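In hormone horns against control gilts, the count of 0 ribosomal protein genes passing became 1 with quantile normalization (RPS23) and 1 with the mean over all probes or over those with a value on every array (RPSA). It became 3 with no replicate block (RPL14, RPL3 and RPSA) and 5 with the slide as the random block (those 3, RPS15 and RPS23). With a gilt left out it ran from 0 to 1. The median difference was 0.29 within scan day 1 and ran from -0.01 to 0.11 with a gilt left out. The count of 8 passing probes, examined after the data were seen, became 15 with normexp, 13 with quantile normalization, 20 with no replicate block, 4 with control horns averaged per gilt and no replicate block, 42 with the slide as block, 0 within each scan day, 0 with the RefSeq over contig gap as a term and 3 without the hormone horn of gilt 36. With a gilt left out it ran from 0 to 17. In placebo horns against control gilts, 1 gene (RPL3) passed with the slide as block. The median was -0.0087 with quantile normalization, -0.027 with the slide as block, 0.086 within scan day 3, -0.18 with the RefSeq over contig gap as a term, and -0.118 to -0.0246 with a gilt left out. The cause was not tested. Between horns, with no replicate block or with the gilt as a fixed replicate block, 0 genes passed, as in the P against L and interaction comparisons under each alternative run. Normexp moved the median of all probes between horns to -0.05, against 0.06, while that of the 37 genes was 0.14, against 0.13. Of 1496 values of 17 named genes under 30 settings, 13 newly passed and 0 passed with the opposite sign, and 119 changed sign without passing. A fixed gilt block could not be fitted in comparisons with control gilts, nor scan days singly or the horn mark for the P against L and interaction comparisons. Precision is limited by 4 control gilts and 5 pairs of horns.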
